A study of Mus musculus with 9 samples.

Results

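The genes described here are 52 genes of the cell cycle and DNA replication, listed by name and looked up by symbol in a table of gene expression with 84809 rows. All 52 had a row, and 50 reached the level at which a row was tested. The list holds 14 genes of DNA replication, 8 G1 cyclins and kinases, 4 genes of the cyclins and kinase that act from S phase to mitosis, 16 genes of mitosis, 5 inhibitors of cyclin-dependent kinases, and 5 genes of E2F factors and retinoblastoma (pocket) proteins. The lookup used gene symbols and no measured value, but the genes were chosen with earlier results of these data known.

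Expression was measured by RNA sequencing of dermal cells of newborn mice of the strain Krt14 cre;Rosa26-mTmG, isolated directly and not cultured. The cells had been sorted by flow cytometry as mesenchymal cells without CD49f (CD49f-neg), with a low signal (CD49f-low) and with a high signal (CD49f-high), with 3 libraries per gate, numbered 1 to 3. CD49f is integrin α6, a laminin receptor subunit. All 9 libraries share the same strain and reporter, so no gate is a genetic control of another. The Krt14 promoter drives Cre in keratinocytes of the epidermis, the mTmG reporter marks cells with a history of Cre, and the labels do not say how the reporter was used in the sort. They also do not say whether the replicates came from separate animals or how many mice were pooled, so p-values measure only the spread between these samples, which may be technical.

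A cell enters the cycle when D-type cyclins with Cdk4 or Cdk6, and then cyclin E with Cdk2, phosphorylate the retinoblastoma protein and so free E2F factors to switch on the genes of DNA replication. The MCM helicase, loaded on DNA by Cdc6 and Cdt1, opens the double helix together with Cdc45 and GINS, while cyclin A and B with Cdk1 later drive mitosis. Many mitotic genes are switched on late in the cycle through promoter elements called CHR and CCAAT boxes, and inhibitors such as p21 and the INK4 proteins hold the kinases in check. Dermal fibroblasts are known to divide in the embryo and to leave the cycle in the days after birth.

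Levels are in FPKM (fragments per kilobase of transcript, scaled to the mapped fragments), and 3 values given for a gate are those of replicates 1, 2 and 3. Differences are between gate means of log2(FPKM + 1), a scale that makes the change of weakly expressed genes look smaller than it is, and a gene was called at a limma adjusted p under 0.05 over 20523 rows tested. This main fit ignores the replicate numbers, although they pair the libraries in these data. Results that use the number as a block are named as such. The depth, estimated from the spacing of low values, was 23687853 to 27274027 fragments per library. Itga6, which encodes CD49f, stood at 0.710, 0.433 and 0.283 FPKM in CD49f-neg, 6.05, 4.38 and 6.09 in CD49f-low and 15.9, 19.6 and 24.1 in CD49f-high, so the gates were ordered as labelled. All rows shifted between gates, and this shift is the base for reading any listed gene: the median row differed by 0.21 between CD49f-low and CD49f-neg, by 0.07 between CD49f-high and CD49f-neg and by -0.15 between CD49f-high and CD49f-low. After median-of-ratios scaling, which divides each library by its median ratio to a common reference, these medians were 0.01, 0.00 and -0.01. Where the libraries of a gate are said to lie above those of another, the share of all rows that do so was not counted.

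The gates also differed in the genes of other cell types. The summed FPKM of 9 fibroblast markers was 14135 to 17192 in CD49f-neg, 5722 to 6964 in CD49f-low and 4153 to 6196 in CD49f-high. For 8 melanocyte markers it was 2.67 to 4.12, 439 to 534 and 22.6 to 53.8, for 6 dermal papilla markers 16.5 to 31.2, 106 to 151 and 23.0 to 36.6, and for 8 pericyte and smooth muscle markers 21.3 to 32.6, 69.8 to 143 and 720.2 to 1341. Markers of several cell types thus moved with the gates. The sums of 3 other lists were lowest in CD49f-neg and highest in CD49f-high, for 7 Schwann cell markers (0.569 to 1.08, 20.4 to 25.8 and 28.0 to 152), 9 keratinocyte markers (2.64 to 3.62, 9.87 to 17.9 and 26.0 to 59.2) and 6 skeletal muscle markers (1.13 to 2.21, 14.5 to 22.4 and 29.4 to 57.1). For 6 endothelial markers they were 1.86 to 4.33, 8.69 to 9.92 and 12.6 to 21.5, and for 7 immune markers 1.74 to 3.21, 3.33 to 4.27 and 2.33 to 3.63. Of the 5 skeletal muscle markers tested, however, 1 was called higher in CD49f-high than in CD49f-low and 4 were called lower. Their sum includes Des, which is also among the 8 pericyte and smooth muscle markers. Myod1 and Myf5, regulators of muscle, and Tyrobp, an immune adaptor, were at 0 in every library of CD49f-neg. In bulk libraries, fewer cells of a type and less RNA per cell cannot be told apart, and the part of these markers in the results that follow was not tested.

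The cell cycle genes stood highest in the low gate. The mean FPKM was highest in CD49f-low for 44 of the 52 genes, including all 14 replication genes, all 4 S to M genes and all 16 mitosis genes, and lowest in CD49f-neg for 44. The other 8 genes were led by CD49f-neg (3 genes) or CD49f-high (5 genes) and all belonged to the G1, inhibitor and E2F groups. The median row shifted in the same order, by 0.21 between CD49f-low and CD49f-neg and by -0.15 between CD49f-high and CD49f-low. The share of all rows with this order was not counted, so the counts of 44 alone do not set the listed genes apart. Per length of transcript, the most abundant of the 52 were Ccnd1 (cyclin D1, mean over all libraries 28.9 FPKM), Mki67 (the proliferation marker Ki-67, 23.9), Cdk4 (20.5) and Cdkn1a (p21, 19.4). The least abundant were the inhibitors Cdkn2b (0.584) and Cdkn2a (0.213), which were not tested.

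**Figure D1:**
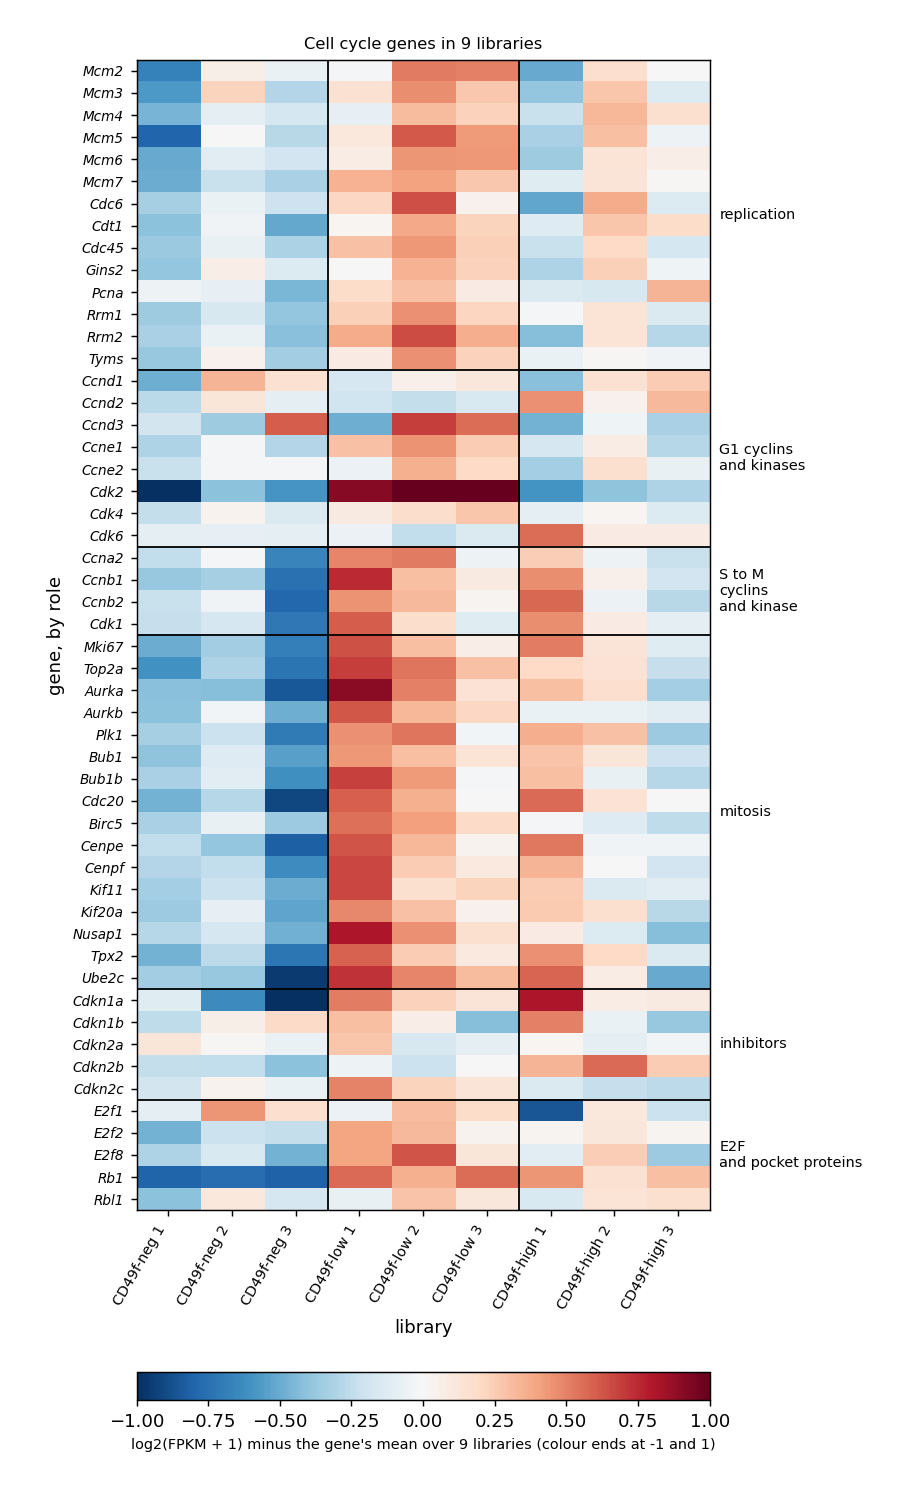
Deviation of log2(FPKM + 1) from the gene's own mean over 9 libraries, with genes in rows by role, libraries in columns by gate and replicate, and colours that end at -1 and 1. Rows of the replication and mitosis genes are mostly red in the 3 CD49f-low columns and blue in the 3 CD49f-neg columns, and replicate 2 is the reddest of its gate for most replication genes, as is replicate 1 for most mitosis genes in CD49f-low and CD49f-high.

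Between CD49f-low and CD49f-neg, 25 of 50 genes tested were higher in CD49f-low and 0 were lower (limma; 40 higher and 0 lower at an unadjusted p under 0.05). Of all rows, 12.8% were called higher and 2.62% lower, and 28% and 4.87% were higher and lower at an unadjusted p under 0.05. The median listed gene differed by 0.61, which is 0.40 above the median of all rows. After median-of-ratios scaling the median gene was 0.36 above that of all rows, but the count of called genes was smaller. In that scaling 5 of 50 listed genes were called higher, against 5.44% of all rows: Mcm7, Cdk2, Top2a, Aurka and Rb1. With the replicate number as a block, 40 were called, against 24% of all rows, and with the block and the scaling together 27, against 8.54%. Single libraries mattered: the count was 5 when CD49f-neg replicate 3 was left out, 8 when CD49f-low replicate 1 was and 5 when CD49f-low replicate 2 was.

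Between CD49f-high and CD49f-neg, 6 of 50 genes tested were higher in CD49f-high and 0 were lower (limma; 20 higher and 0 lower at an unadjusted p under 0.05). The 6 were Mki67, Top2a, Cdc20, Tpx2, Cdkn1a and Rb1, and all 6 were also higher in CD49f-low. Of all rows, 13.9% were called higher and 8.27% lower, so the share of 12% of listed genes called higher was close to the background. The median listed gene differed by 0.31, which is 0.24 above the median of all rows (0.23 above it after median-of-ratios scaling). At an unadjusted p under 0.05, 21.4% of all rows were higher and 12.6% lower. After median-of-ratios scaling the count was again 6, against 12.1% of all rows. With the replicate block it was 20 higher, against 19.7%, with 1 lower, and with the block and the scaling 15, against 16.4%, with 1 lower. Of the CD49f-neg libraries, leaving out replicate 1 gave 3 and replicate 3 gave 1. Of the CD49f-high libraries, leaving out replicate 1 gave 2, replicate 2 gave 2 and replicate 3 gave 10.

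Between CD49f-high and CD49f-low, 1 of 50 genes was higher in CD49f-high (Ccnd2), against 5.93% of all rows, and 6 were lower (Rrm2, Ccne1, Cdk2, Birc5, Nusap1 and Cdkn2c), against 10.5%. These shares were close to the background or under it. At an unadjusted p under 0.05, 2 of the 50 listed genes were higher and 13 lower, against 9.04% and 21.6% of all rows. After median-of-ratios scaling 1 gene, Cdk2, was called lower, against 6.49% of all rows, and 2 were called higher, Ccnd2 and Cdk6. With the replicate block 19 were lower, against 17.8%, and with the block and the scaling 6, against 9.76%. The count of lower genes was 1 when either CD49f-low replicate 1 or 2, or CD49f-high replicate 3, was left out. The single higher call, Ccnd2, was lost without any one of CD49f-neg replicate 3, CD49f-low replicates 1, 2 or 3, and CD49f-high replicates 1 or 3. The comparisons share their libraries, so their counts are not independent of each other.

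**Figure D2:**
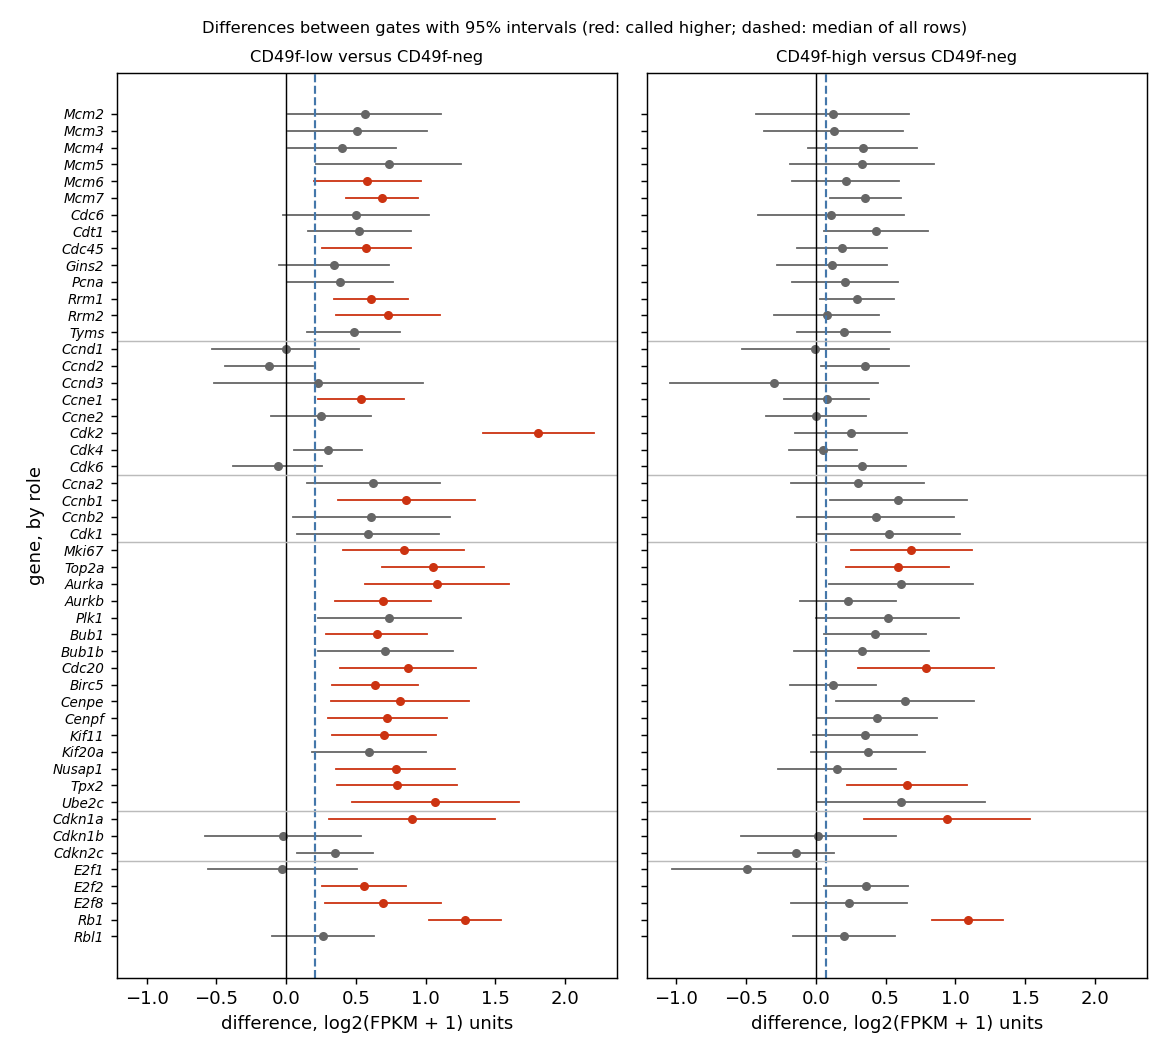
Difference in log2(FPKM + 1) of the 50 genes tested, CD49f-low minus CD49f-neg on the left and CD49f-high minus CD49f-neg on the right, with 95% intervals (bars), called genes in red and the median of all rows as a dashed line (0.21 and 0.07). On the left all replication, S to M and mitosis genes lie to the right of the dashed line, and Cdk2 (1.81) and Rb1 (1.28) lie farthest from it.

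The replication genes were higher in CD49f-low than in CD49f-neg for 5 of 14 and lower for 0 (12 and 0 at an unadjusted p under 0.05). The shares of all rows were 12.8% and 2.62% (28% and 4.87% at an unadjusted p under 0.05). With the replicate block 13 of the 14, all but Pcna, were called higher, against 24% of all rows. With the block and the scaling 7 were, against 8.54%. The 14 differences ran from 0.34 to 0.74 with a median of 0.55, which was 0.33 above that of all rows. Of the MCM helicase, Mcm6 stood at 8.92, 12.1 and 11.3 FPKM in CD49f-neg, 13.8, 18.1 and 18.0 in CD49f-low and 9.97, 14.4 and 13.7 in CD49f-high. Mcm7 stood at 4.76, 5.99 and 5.49 FPKM in CD49f-neg, 9.35, 9.78 and 8.79 in CD49f-low and 6.47, 7.89 and 7.21 in CD49f-high. Every CD49f-low library was above every CD49f-neg library for both, with differences of 0.58 (SE 0.17, limma adjusted p = 0.0487) and 0.69 (SE 0.11, limma adjusted p = 0.00371). The row of Mcm7 (chromosome 5, 138164583 to 138172422, GRCm38) also covers the microRNA genes Mir25 and Mir93, and its gene overlaps Cops6 and Ap4m1 on the other strand, so its value is uncertain as to gene. Mcm7 was the replication gene still called after scaling, at 0.44 (limma adjusted p = 0.0405).

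Mcm4, another subunit and among the most abundant of the group, stood at 9.58, 12.6 and 11.9 FPKM in CD49f-neg, 12.7, 17.2 and 16.1 in CD49f-low and 11.5, 17.4 and 15.3 in CD49f-high, a difference between CD49f-low and CD49f-neg of 0.40 (limma adjusted p = 0.143) that did not pass without the replicate block (limma adjusted p = 0.0116 with it). Cdc45, which activates the helicase, stood at 2.99, 3.90 and 3.14 FPKM in CD49f-neg, 5.31, 5.98 and 5.10 in CD49f-low and 3.44, 4.92 and 3.56 in CD49f-high. Its CD49f-low libraries lay above all others, and the difference from CD49f-neg was 0.58 (SE 0.14, limma adjusted p = 0.0266). The remaining replication genes were called in no comparison of the main fit. With the block all of them but Pcna were called higher in CD49f-low than in CD49f-neg. They were the helicase subunits Mcm2, Mcm3 and Mcm5, the loaders Cdc6 and Cdt1, the GINS subunit Gins2, the polymerase clamp Pcna and the thymidylate synthase Tyms. Their differences between CD49f-low and CD49f-neg ran from 0.34 for Gins2 to 0.74 for Mcm5 (limma adjusted p = 0.0595, and 0.00164 with the block). The row of Pcna is shared with Tmem230, and Pcna and Tyms have pseudogenes, so those values are uncertain as to gene.

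Ribonucleotide reductase, the enzyme that makes DNA building blocks, was higher in CD49f-low in both subunits. Rrm1, the large subunit, stood at 12.5, 14.4 and 12.1 FPKM in CD49f-neg, 19.3, 22.7 and 19.0 in CD49f-low and 16.1, 17.9 and 14.6 in CD49f-high, a difference from CD49f-neg of 0.61 (SE 0.12, limma adjusted p = 0.00911). Rrm2, the small subunit made in S phase, stood at 10.5, 12.7 and 9.78 FPKM in CD49f-neg, 17.6, 21.6 and 17.5 in CD49f-low and 9.70, 14.8 and 10.8 in CD49f-high. The 3 CD49f-low libraries of Rrm2 lay above the other 6, while CD49f-neg and CD49f-high overlapped. The difference was 0.73 (SE 0.17, limma adjusted p = 0.0188) from CD49f-neg, and CD49f-high differed from CD49f-low by -0.65 (SE 0.17, limma adjusted p = 0.0255). Rrm2 was the replication gene called between CD49f-high and CD49f-low, and between CD49f-high and CD49f-neg the count was 0 of 14 (limma; 3 higher and 0 lower at an unadjusted p under 0.05). With the replicate block these counts were 8 lower and 5 higher, and with the block and the scaling 2 and 1. The shares of all rows were 10.5% lower and 13.9% higher without the block. They were 17.8% and 19.7% with it, and 9.76% and 16.4% with the block and the scaling.

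Promoters of called replication genes are shown because E2F factors are known to act there. They are the 200 bases before the RefSeq transcription start (GRCm38.p6), written 5′ to 3′ on the gene's strand, and capitals mark matches on either strand to the E2F words TTTCGCGC, TTTGGCGC and TTTCCCGC, the CHR word TTTGAA and the CCAAT box CCAAT. Mcm7 (chr5:138171267-138171466, minus strand), Rrm1 (chr7:102441495-102441694, plus strand) and Rrm2 (chr12:24708054-24708253, plus strand) had the smallest p over the gates, and Mcm6 (chr1:128359706-128359905, minus strand) was added after its matches were seen.
Mcm7: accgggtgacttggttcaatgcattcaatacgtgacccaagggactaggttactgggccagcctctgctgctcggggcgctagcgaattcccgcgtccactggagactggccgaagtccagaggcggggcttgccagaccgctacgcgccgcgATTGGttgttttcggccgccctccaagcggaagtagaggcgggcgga
Rrm1: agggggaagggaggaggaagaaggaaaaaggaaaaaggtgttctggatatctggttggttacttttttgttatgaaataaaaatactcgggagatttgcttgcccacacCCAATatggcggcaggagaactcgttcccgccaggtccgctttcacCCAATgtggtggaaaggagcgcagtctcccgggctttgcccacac
Rrm2: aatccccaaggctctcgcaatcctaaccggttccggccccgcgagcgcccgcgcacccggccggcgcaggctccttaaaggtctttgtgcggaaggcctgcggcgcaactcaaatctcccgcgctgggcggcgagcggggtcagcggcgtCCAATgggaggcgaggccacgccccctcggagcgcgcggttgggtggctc
Mcm6: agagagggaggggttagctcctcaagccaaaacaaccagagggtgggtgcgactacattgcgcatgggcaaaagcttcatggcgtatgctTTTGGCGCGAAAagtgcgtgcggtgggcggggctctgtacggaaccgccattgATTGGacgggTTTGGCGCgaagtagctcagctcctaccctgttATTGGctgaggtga
The Mcm6 stretch holds 3 E2F words, whose first bases lie 110, 106 and 47 bases before the start, the first 2 of them overlapping in 1 run of capitals. Of the words searched, the printed stretches of Mcm7, Rrm1 and Rrm2 hold CCAAT boxes alone. The table has another start for Mcm7 (chr5:138171884-138172083, minus strand), whose stretch is not printed and holds 1 E2F word, 165 bases before that start, and 2 CCAAT boxes. In the 300 bases around the start that the table gives (250 before and 50 after), an E2F word was found in 6 of 13 promoters of replication genes (46.2%) against 1.84% of 32851 promoters of the table, and a CCAAT box in 10 of 13 (76.9%) against 37.4%. A match of letters is a description and not a site. Of the 52 genes, 42 had a promoter in the table.

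Of the 8 G1 cyclins and kinases tested, 2 were higher in CD49f-low than in CD49f-neg and 0 were lower, against 12.8% and 2.62% of all rows. The median difference of the 8, 0.24, was 0.03 above that of all rows. Cdk2, the kinase partner of cyclin E (chromosome 10, 128697939 to 128705051, GRCm38), stood at 4.94, 8.29 and 7.23 FPKM in CD49f-neg, 22.3, 26.2 and 29.9 in CD49f-low and 7.19, 8.39 and 8.97 in CD49f-high. Every CD49f-low library was more than 2 times any other library. The difference was 1.81 (SE 0.18, limma adjusted p = 0.000175) from CD49f-neg, and CD49f-high differed from CD49f-low by -1.56 (SE 0.18, limma adjusted p = 0.000373). After median-of-ratios scaling these were 1.54 and -1.39, and both calls held in all 19 alternatives run for them.

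Cdk2 lies head to head with Pmel, a gene of the pigment organelle on the other strand. In the deposited coordinates their ends are 1206 bases apart, but in the GENCODE M21 annotation 1 of 3 Pmel transcripts reaches into Cdk2, and the gene models share 837 bases. Pmel stood at 0.345, 0.310 and 0.306 FPKM in CD49f-neg, 186, 222 and 190 in CD49f-low and 5.23, 6.38 and 1.56 in CD49f-high. It was thus high in the 3 libraries in which Cdk2 was high, and its difference between CD49f-low and CD49f-neg was 7.24 (limma adjusted p = 4.17e-06). Mitf, the transcription factor of pigment cells, stood at 2.59, 1.91 and 1.66 FPKM in CD49f-neg, 10.2, 10.3 and 12.2 in CD49f-low and 1.91, 1.61 and 1.63 in CD49f-high. The labels do not state whether the libraries kept the strand, and the part of Pmel reads or of pigment cells in the value of Cdk2 was not tested.

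Ccne1, cyclin E1, stood at 2.08, 2.76 and 2.10 FPKM in CD49f-neg, 3.67, 4.20 and 3.52 in CD49f-low and 2.38, 2.99 and 2.11 in CD49f-high. Its CD49f-low libraries lay above the other 6, with a difference of 0.54 (SE 0.14, limma adjusted p = 0.0287) from CD49f-neg, and CD49f-high differed from CD49f-low by -0.46 (limma adjusted p = 0.0468). Ccnd2, cyclin D2 (chromosome 6, 127125162 to 127152193), stood at 4.07, 5.63 and 4.74 FPKM in CD49f-neg, 4.30, 4.17 and 4.49 in CD49f-low and 7.37, 5.28 and 6.64 in CD49f-high. Here CD49f-high was above CD49f-low in all libraries, by 0.47 (SE 0.14, limma adjusted p = 0.0474) and by 0.62 after scaling, and CD49f-neg overlapped both. Ccnd2 overlaps Gm43126 and 9330179D12Rik on the other strand.

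Ccnd1, cyclin D1, was the most abundant of the 52, and its gates overlapped in every comparison. It stood at 20.0, 36.2 and 31.7 FPKM in CD49f-neg, 25.2, 29.5 and 30.9 in CD49f-low and 21.0, 31.7 and 34.2 in CD49f-high. The difference of CD49f-low from CD49f-neg was near 0 (95% interval -0.53 to 0.53), so a difference of either sign within that interval is not excluded, and replicate 1 was the lowest of its gate in all 3 gates. Cdk4, the kinase partner of D cyclins, stood at 17.1, 20.9 and 18.3 FPKM in CD49f-neg, 21.8, 23.2 and 24.9 in CD49f-low and 19.1, 20.7 and 18.5 in CD49f-high, a difference of 0.30 (limma adjusted p = 0.0900) that was 0.03 after scaling. Ccnd3, cyclin D3, was the most uneven within gates, at 5.59, 4.83 and 10.4 FPKM in CD49f-neg, 4.32, 11.1 and 10.0 in CD49f-low and 4.39, 6.26 and 4.96 in CD49f-high. It has a pseudogene, Ccnd3-ps, and overlaps Bysl. In the main fit, no comparison passed for Ccnd1, Cdk4 or Ccnd3, nor for Ccne2, cyclin E2, and Cdk6, a second partner of D cyclins. Cdk6 was called higher in CD49f-high than in CD49f-low after scaling, at 0.53 (limma adjusted p = 0.0268), against 0.39 (limma adjusted p = 0.0931) as deposited. With the block, Cdk4 was called higher in CD49f-low than in CD49f-neg (limma adjusted p = 0.0464) and Cdk6 higher in CD49f-high than in CD49f-low (limma adjusted p = 0.0461).

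The S to M group held 1 called gene of 4, higher in CD49f-low than in CD49f-neg, against 12.8% of all rows. Ccnb1, cyclin B1, stood at 1.28, 1.36 and 0.776 FPKM in CD49f-neg, 3.99, 2.66 and 2.17 in CD49f-low and 3.10, 2.07 and 1.61 in CD49f-high, with a difference between CD49f-low and CD49f-neg of 0.86 (SE 0.22, limma adjusted p = 0.0286). Ccnb2, cyclin B2, stood at 8.47, 9.81 and 5.43 FPKM in CD49f-neg, 14.1, 12.8 and 10.3 in CD49f-low and 15.5, 9.64 and 8.14 in CD49f-high, a difference of 0.61 (limma adjusted p = 0.125). The CD49f-low libraries lay above the CD49f-neg libraries for both cyclins, and both have pseudogenes. Ccna2, cyclin A2, stood at 5.70, 6.85 and 4.02 FPKM in CD49f-neg, 10.2, 10.4 and 6.66 in CD49f-low and 8.44, 6.68 and 5.82 in CD49f-high, a difference of 0.63 (limma adjusted p = 0.0751). Cdk1, the mitotic kinase, stood at 3.42, 3.61 and 2.15 FPKM in CD49f-neg, 6.89, 4.84 and 3.75 in CD49f-low and 6.14, 4.48 and 3.85 in CD49f-high, a difference of 0.59 (limma adjusted p = 0.105). For Ccna2 the CD49f-neg and CD49f-low ranges met (6.85 and 6.66 FPKM), and replicate 3 was the lowest library of each gate for all 4 genes. With the replicate block all 4 were called higher in CD49f-low, and Ccnb1 and Cdk1 were called higher in CD49f-high, where without it the count was 0 (limma; 2 higher and 0 lower at an unadjusted p under 0.05). The shares of all rows called higher with the block were 24% in CD49f-low and 19.7% in CD49f-high.

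The mitosis genes were the group with the largest called share between CD49f-low and CD49f-neg among the 6 groups. Of 16 tested, 13 were higher in CD49f-low and 0 were lower (16 and 0 at an unadjusted p under 0.05, and 16 higher with the replicate block). The shares of all rows that were higher were 12.8%, 28% at an unadjusted p under 0.05 and 24% with the block. The 16 differences ran from 0.59 to 1.08 with a median of 0.76, 0.55 above that of all rows, and 0.51 above it after scaling. After scaling, however, only Top2a and Aurka of this group were called, against 5.44% of all rows. With scaling and block together 14 were called, against 8.54%. Between CD49f-high and CD49f-neg 4 of 16 were called higher, both with and without scaling, against 12.1% and 13.9% of all rows. The median of the 16 was 0.48, 0.41 above that of all rows. With the replicate block 11 were called, against 19.7%, and 10 with the scaling too, against 16.4%. Between CD49f-high and CD49f-low 2 were lower, against 10.5% of all rows. With the block 6 were lower, against 17.8%, and 2 with the scaling too, against 9.76%.

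Top2a, the topoisomerase that untangles chromosomes before they part (chromosome 11, 98992943 to 99024189), stood at 10.2, 12.7 and 9.23 FPKM in CD49f-neg, 26.4, 23.6 and 19.8 in CD49f-low and 18.4, 17.8 and 13.5 in CD49f-high. CD49f-neg was below both other gates and CD49f-low above CD49f-high in all libraries. The difference from CD49f-neg was 1.05 (SE 0.16, limma adjusted p = 0.00258) for CD49f-low and 0.59 (SE 0.16, limma adjusted p = 0.0294) for CD49f-high, and the first of these held in all 19 alternatives. The row of Top2a also covers Gm23451, a predicted gene. Mki67, the surface coat of mitotic chromosomes (chromosome 7, 135689788 to 135716379), stood at 15.9, 17.8 and 13.8 FPKM in CD49f-neg, 36.2, 28.4 and 23.9 in CD49f-low and 33.0, 25.1 and 21.0 in CD49f-high. Every library of CD49f-low and CD49f-high lay above every CD49f-neg library, with differences of 0.84 (limma adjusted p = 0.0188) and 0.68 (limma adjusted p = 0.0305), and the low and high gates overlapped.

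Among kinases and checkpoint genes, Aurka, the spindle pole kinase Aurora A, stood at 3.18, 3.15 and 2.10 FPKM in CD49f-neg, 9.45, 6.92 and 5.17 in CD49f-low and 5.89, 5.29 and 3.41 in CD49f-high. Aurkb, Aurora B of the chromosomal passenger complex, stood at 2.89, 4.07 and 2.67 FPKM in CD49f-neg, 6.95, 5.49 and 4.95 in CD49f-low and 3.93, 3.93 and 3.80 in CD49f-high. Birc5, survivin of the same complex, stood at 2.14, 2.73 and 2.05 FPKM in CD49f-neg, 4.75, 4.23 and 3.48 in CD49f-low and 2.90, 2.60 and 2.29 in CD49f-high. In all 3 the CD49f-low libraries were above the CD49f-neg libraries, by 1.08 (limma adjusted p = 0.0136), 0.69 (limma adjusted p = 0.0158) and 0.64 (limma adjusted p = 0.0143), and Birc5 also differed between CD49f-high and CD49f-low, by -0.52 (limma adjusted p = 0.0308). Bub1, a kinase of the spindle checkpoint, stood at 2.71, 3.49 and 2.37 FPKM in CD49f-neg, 5.64, 5.05 and 4.39 in CD49f-low and 4.98, 4.34 and 3.26 in CD49f-high. Cdc20, which activates the anaphase-promoting complex, stood at 9.16, 10.5 and 6.46 FPKM in CD49f-neg, 20.3, 17.0 and 13.0 in CD49f-low and 19.8, 14.5 and 13.1 in CD49f-high. For Cdc20 both positive gates were above CD49f-neg, by 0.87 (limma adjusted p = 0.0268) for CD49f-low and 0.79 (limma adjusted p = 0.0270) for CD49f-high, and Bub1 was above it in CD49f-low by 0.65 (limma adjusted p = 0.0275). Cdc20 overlaps Elovl1 on the other strand.

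Ube2c, the ubiquitin-conjugating enzyme of that complex, stood at 5.64, 5.50 and 3.37 FPKM in CD49f-neg, 13.0, 10.9 and 9.54 in CD49f-low and 11.7, 7.89 and 4.97 in CD49f-high. Its CD49f-high libraries spread over more than 2-fold, and the difference of CD49f-low from CD49f-neg was 1.07 (limma adjusted p = 0.0274). Of the kinetochore genes, Cenpe, a motor protein, stood at 3.92, 3.46 and 2.31 FPKM in CD49f-neg, 8.03, 6.38 and 4.98 in CD49f-low and 7.44, 4.71 and 4.70 in CD49f-high. Cenpf stood at 3.25, 3.40 and 2.37 FPKM in CD49f-neg, 7.27, 5.22 and 4.57 in CD49f-low and 5.60, 4.20 and 3.57 in CD49f-high. Both were higher in CD49f-low, by 0.82 (limma adjusted p = 0.0353) and 0.73 (limma adjusted p = 0.0330), and their CD49f-high libraries, all above CD49f-neg, did not pass (limma adjusted p = 0.0663 and 0.140, but 0.00365 and 0.0190 with the block).

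Spindle genes showed the same order of gate means. Kif11, the motor that pushes spindle poles apart, stood at 7.48, 8.23 and 6.59 FPKM in CD49f-neg, 16.0, 11.0 and 11.5 in CD49f-low and 11.8, 8.71 and 8.92 in CD49f-high. Nusap1, which bundles microtubules, stood at 2.63, 2.94 and 2.18 FPKM in CD49f-neg, 6.75, 5.08 and 3.94 in CD49f-low and 3.68, 3.04 and 2.29 in CD49f-high. Tpx2, the activator of Aurora A, stood at 5.74, 6.81 and 4.67 FPKM in CD49f-neg, 13.1, 10.1 and 8.98 in CD49f-low and 11.8, 9.71 and 7.44 in CD49f-high. All were higher in CD49f-low than in CD49f-neg, by 0.70 (limma adjusted p = 0.0223), 0.79 (limma adjusted p = 0.0236) and 0.80 (limma adjusted p = 0.0235). In CD49f-high, Tpx2 was also above CD49f-neg, by 0.65 (limma adjusted p = 0.0365), while Nusap1 was lower in CD49f-high than in CD49f-low, at -0.63 (limma adjusted p = 0.0489). The 3 mitosis genes without a call were the kinase Plk1, the checkpoint kinase Bub1b and the motor Kif20a, with differences between CD49f-low and CD49f-neg of 0.74 (limma adjusted p = 0.0567), 0.71 (limma adjusted p = 0.0525) and 0.59 (limma adjusted p = 0.0554). Their CD49f-low libraries were all above their CD49f-neg libraries, but the share of all rows of which this is true was not counted.

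Promoters of 3 of these genes are shown for the CHR words and CCAAT boxes known from mitotic genes, with the same conventions as for the replication genes. They are those of Top2a (chr11:99024190-99024389, minus strand), Mki67 (chr7:135716380-135716579, minus strand) and Cdc20 (chr4:118437344-118437543, minus strand). Aurka had a smaller p over the gates than Mki67 and Cdc20, but exons cover 90 of its 200 bases, and Cdc20 took its place. The Aurka stretch holds 2 CCAAT boxes and 0 CHR words, so the 3 shown are not a sample of the group.
Top2a: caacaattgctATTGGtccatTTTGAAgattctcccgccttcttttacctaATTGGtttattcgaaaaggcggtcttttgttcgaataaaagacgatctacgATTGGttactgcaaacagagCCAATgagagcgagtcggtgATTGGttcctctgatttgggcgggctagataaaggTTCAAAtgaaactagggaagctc
Mki67: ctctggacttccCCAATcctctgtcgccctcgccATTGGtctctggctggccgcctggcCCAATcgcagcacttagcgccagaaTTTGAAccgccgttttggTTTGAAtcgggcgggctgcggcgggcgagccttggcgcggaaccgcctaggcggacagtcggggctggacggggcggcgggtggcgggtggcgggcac
Cdc20: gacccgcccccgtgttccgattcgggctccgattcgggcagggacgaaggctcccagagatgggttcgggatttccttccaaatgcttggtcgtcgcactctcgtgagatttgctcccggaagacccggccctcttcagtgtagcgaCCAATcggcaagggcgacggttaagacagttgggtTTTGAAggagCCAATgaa
The Top2a stretch holds 2 CHR words, with first bases 179 and 23 bases before the start, and 5 CCAAT boxes. The Mki67 stretch holds 2 CHR words, at 116 and 98 bases, and 3 CCAAT boxes, and the Cdc20 stretch 1 CHR word between 2 CCAAT boxes. In the 300-base window, a CHR word was found in 9 of 13 promoters of mitosis genes (69.2%) and 2 of 13 promoters of replication genes (15.4%), against 17.9% of all promoters. All 9 also held a CCAAT box, a pair of words found in 6.95% of all promoters, while an E2F word was found in 0 of 13. The windows of the replication and mitosis genes thus differed in their shares with E2F and CHR words. A CCAAT box was common in both groups, in 76.9% of replication and 84.6% of mitosis promoters. Nothing about binding was measured.

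The inhibitors were not alike. Cdkn1a, which encodes p21 (chromosome 17, 29090979 to 29100722), stood at 16.6, 11.3 and 8.06 FPKM in CD49f-neg, 26.3, 21.5 and 19.9 in CD49f-low and 32.6, 19.2 and 19.4 in CD49f-high. It was higher than in CD49f-neg in every library of CD49f-low and CD49f-high, by 0.90 (SE 0.26, limma adjusted p = 0.0479) and 0.94 (SE 0.26, limma adjusted p = 0.0303). It was thus an inhibitor that stood with the mitosis genes in direction, and after scaling the first difference was 0.63 (limma adjusted p = 0.160) and the second 0.84 (0.0370). Cdkn1b, which encodes p27, stood at 10.5, 13.2 and 14.7 FPKM in CD49f-neg, 15.8, 13.3 and 9.21 in CD49f-low and 18.4, 12.0 and 9.54 in CD49f-high. Its gates overlapped in every comparison, and replicate 3 was the highest library in CD49f-neg and the lowest in CD49f-low and CD49f-high. Cdkn2c, the INK4 protein p18, stood at 5.77, 6.86 and 6.33 FPKM in CD49f-neg, 9.82, 7.93 and 7.39 in CD49f-low and 5.95, 5.52 and 5.41 in CD49f-high. It was lower in CD49f-high than in CD49f-low, at -0.49 (SE 0.12, limma adjusted p = 0.0218), and the difference of CD49f-low from CD49f-neg was 0.35 (limma adjusted p = 0.0791).

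Cdkn2b, the INK4 protein p15, stayed near or under the filter at 0.314, 0.302 and 0.165 FPKM in CD49f-neg, 0.497, 0.333 and 0.549 in CD49f-low and 0.955, 1.29 and 0.843 in CD49f-high and was not tested. With no filter it was called between CD49f-high and CD49f-neg, at 0.68 (limma adjusted p = 0.00876). All 3 CD49f-high libraries lay above the other 6. Cdkn2a, which encodes p16 and p19ARF and is known for its rise in senescent cells, stood at 0.0824 to 0.462 FPKM over the 9 libraries, and its gates overlapped in all comparisons.

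Of the pocket proteins, Rb1, the retinoblastoma gene (chromosome 14, 73183673 to 73325822), stood at 2.19, 2.27 and 2.17 FPKM in CD49f-neg, 7.20, 6.10 and 7.17 in CD49f-low and 6.54, 5.15 and 5.84 in CD49f-high. The 3 CD49f-neg libraries lay close together and below all others. Rb1 was higher by 1.28 (SE 0.11, limma adjusted p = 9.55e-05) in CD49f-low and by 1.09 (SE 0.11, limma adjusted p = 0.000134) in CD49f-high, and both calls held in all 19 alternatives, at 1.06 and 1.02 after scaling. The table holds 3 rows named Rb1, and the row with the highest mean was used. A second Rb1 row was called too, at 0.61 in CD49f-low and 0.53 in CD49f-high (limma adjusted p = 0.0136 and 0.0162), and the third was under the filter. Rb1 overlaps Lpar6 and Rcbtb2 on the other strand, and Lpar6 differed between CD49f-low and CD49f-neg by 0.15 (limma adjusted p = 0.431). Rbl1, the pocket protein p107, stood at 2.61, 4.18 and 3.28 FPKM in CD49f-neg, 3.56, 4.85 and 4.20 in CD49f-low and 3.32, 4.26 and 4.37 in CD49f-high with no call.

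Of the E2F factors, E2f1, an activator, stood at 5.76, 8.78 and 7.10 FPKM in CD49f-neg, 5.92, 7.91 and 7.20 in CD49f-low and 2.97, 6.75 and 5.21 in CD49f-high. It was not higher in CD49f-low, at -0.03 (95% interval -0.56 to 0.51), and with the replicate block it was the gene called lower in CD49f-high against CD49f-neg (-0.50, limma adjusted p = 0.0198 with the block, 0.178 without). E2f2, another activator, stood at 0.920, 1.30 and 1.26 FPKM in CD49f-neg, 2.51, 2.34 and 1.73 in CD49f-low and 1.71, 1.87 and 1.72 in CD49f-high. E2f8, an atypical repressor, stood at 2.17, 2.54 and 1.83 FPKM in CD49f-neg, 4.18, 5.07 and 3.29 in CD49f-low and 2.66, 3.67 and 2.06 in CD49f-high. Both were higher in CD49f-low than in CD49f-neg in every library, by 0.56 (limma adjusted p = 0.0227) and 0.69 (limma adjusted p = 0.0352). E2f1 and E2f8 were called lower in CD49f-high than in CD49f-low with the block (limma adjusted p = 0.0301 and 0.0111, and 0.217 and 0.133 without).

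**Figure D3:**
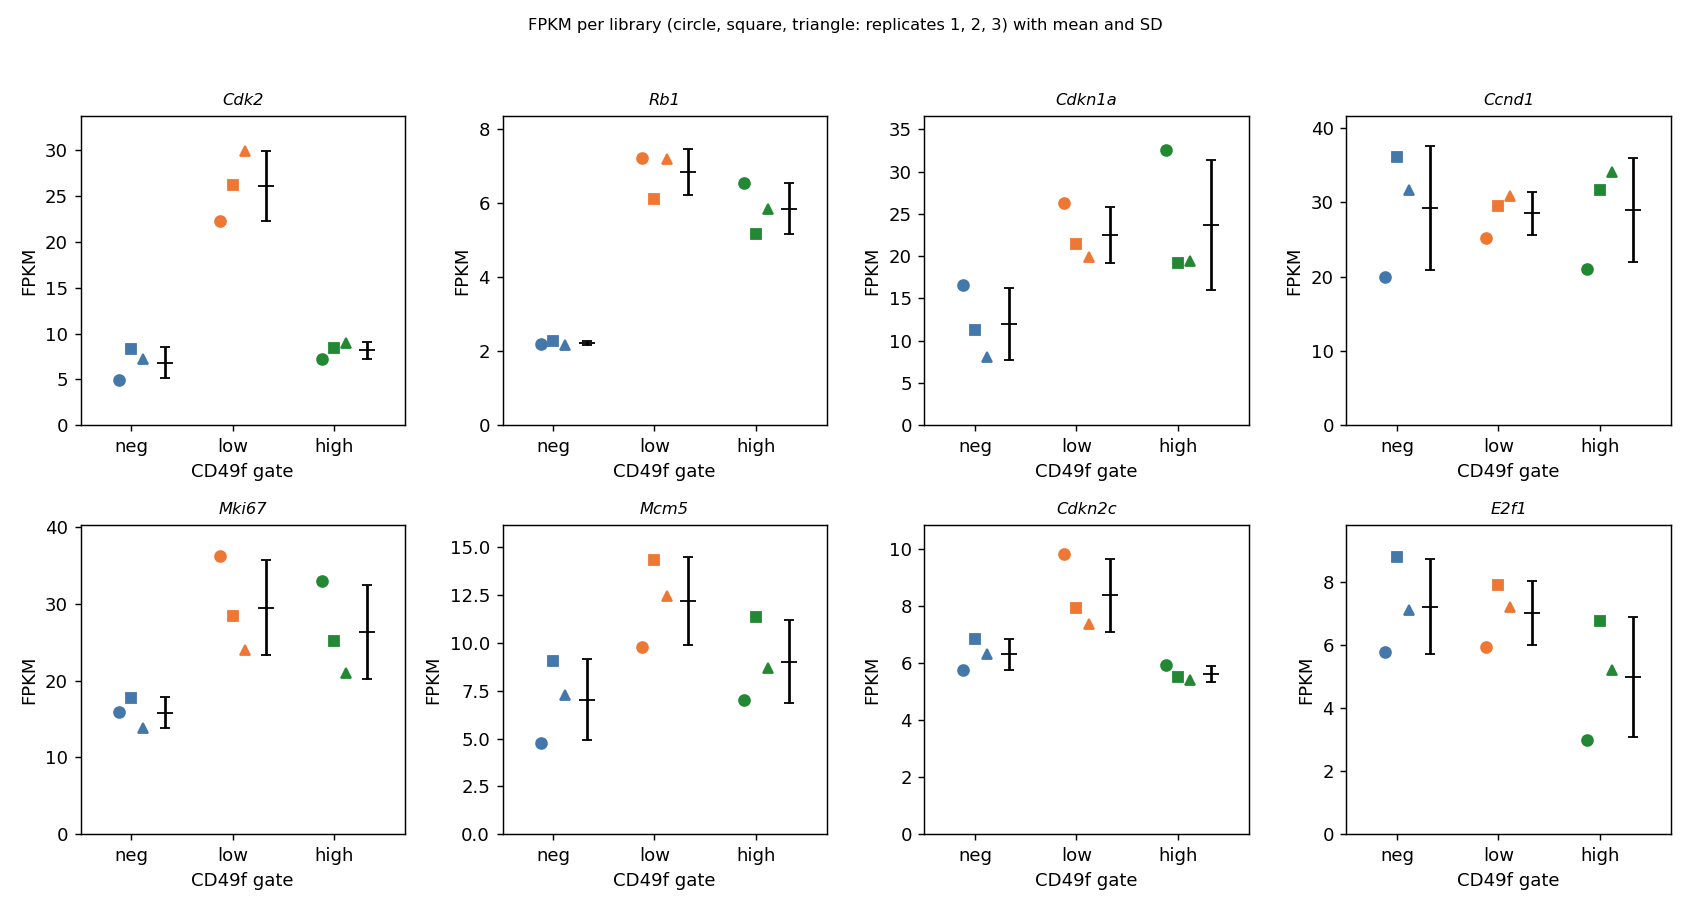
FPKM of 8 genes in each library (circle, square and triangle for replicates 1, 2 and 3), with the gate's mean and SD as bars, on linear axes from 0. Cdk2 is high in CD49f-low alone (22.3 to 29.9 FPKM), Rb1 and Cdkn1a are high in both positive gates, and the gates of Ccnd1 and E2f1 overlap.

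Within each gate the replicates differed by role, in an order that recurred across gates. Of the replication genes, 13 of 14 were highest in replicate 2 in all 3 gates, and 7 were lowest in replicate 1 in all 3. Of the mitosis genes, 15 of 16 were highest in replicate 1 in both CD49f-low and CD49f-high, whereas in CD49f-neg 13 were highest in replicate 2. Replicate 3 was the lowest for all 16 in CD49f-neg, for 15 in CD49f-low and for 15 in CD49f-high. Between replicates 2 and 1, with the gate as a term, the median replication gene differed by 0.40 and the median mitosis gene by -0.14. Between replicates 3 and 1 the medians were 0.13 and -0.46, beside 0.01 (replicates 2 and 1) and -0.03 (replicates 3 and 1) for all rows. In limma's F test over the replicate numbers, 6 of 50 listed genes were called, against 4.23% of all rows (869 of 20523). They were Mcm2, Mcm4, Mcm5 and Mcm6 of the helicase and Aurka and Plk1 of the mitotic kinases. What the replicate numbers stand for is not given in the sources used here.

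**Figure D4:**
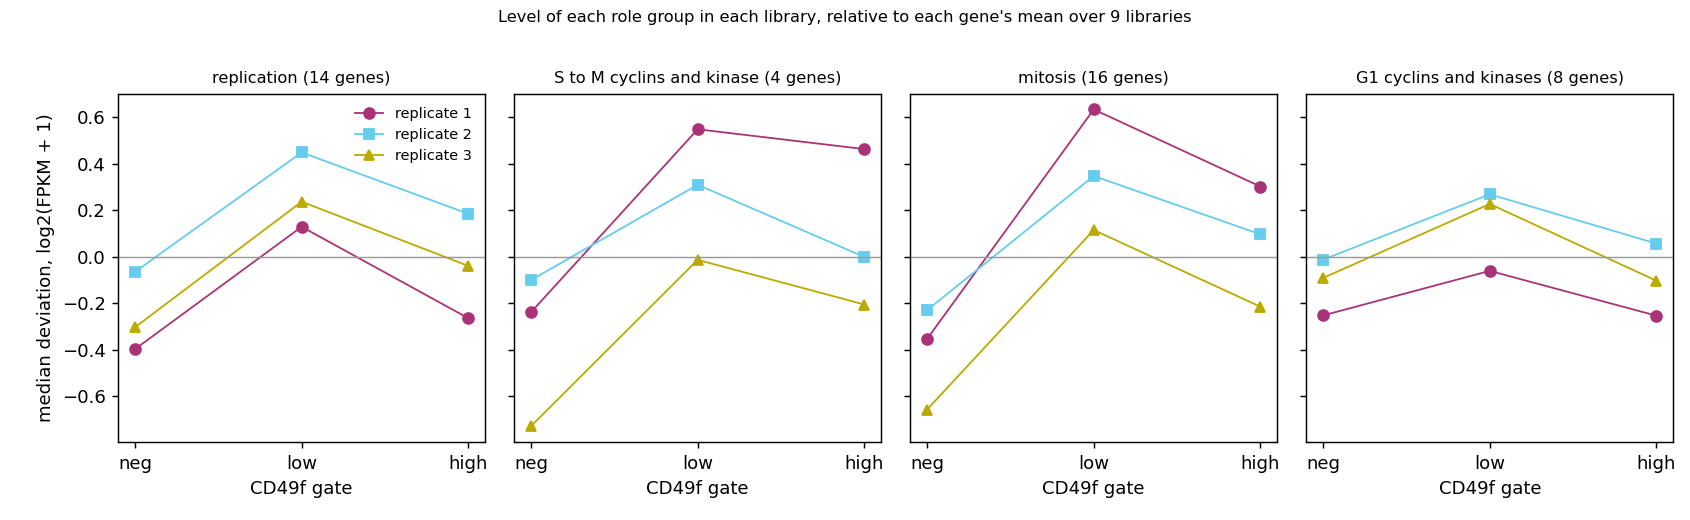
Median deviation of log2(FPKM + 1) from each gene's mean over 9 libraries, per library, for 4 role groups, with the gate on the horizontal axis and 1 line per replicate number. Replication medians of replicate 2 lie on top in every gate (-0.07, 0.45 and 0.18), while mitosis medians of replicate 1 lie on top in CD49f-low and CD49f-high (0.63 and 0.30).

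The difference between gates was also present inside each replicate number. For the replication group the median deviation in CD49f-neg, CD49f-low and CD49f-high was -0.40, 0.13 and -0.26 in replicate 1, -0.07, 0.45 and 0.18 in replicate 2, and -0.30, 0.24 and -0.04 in replicate 3. For the mitosis group it was -0.35, 0.63 and 0.30 in replicate 1, -0.23, 0.35 and 0.10 in replicate 2, and -0.66, 0.11 and -0.22 in replicate 3. CD49f-low was the highest gate and CD49f-neg the lowest in each of these 6 series. The median of log2(FPKM + 1) over all rows tested had the same order. In CD49f-neg, CD49f-low and CD49f-high it was 1.82, 2.03 and 1.93 in replicate 1. It was 1.84, 2.02 and 1.94 in replicate 2, and 1.73, 2.02 and 1.88 in replicate 3. The order alone therefore does not set these groups apart from all rows. For the G1 group the range was narrower, from -0.25 to 0.27.

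Other genes of mitosis, outside the 52, were called in CD49f-low at a share of 74.2%, and other replication genes at 10.7%, under the 12.8% of all rows. These lists, too, were chosen with earlier results of these data known. Of 31 other mitosis genes tested, 23 were higher in CD49f-low than in CD49f-neg and 0 lower, with a median difference of 0.65. Between CD49f-high and CD49f-neg 7 were higher, against 13.9% of all rows, and 18 with the replicate block, against 19.7%. The 3 with the smallest p were Cdc25b, the phosphatase that activates Cdk1, Prc1, which bundles midzone microtubules, and Smc2, a condensin subunit. Cdc25b stood at 3.52 ± 0.762, 7.83 ± 0.424 and 4.36 ± 0.883 FPKM (mean ± SD, n = 3) in CD49f-neg, CD49f-low and CD49f-high, and was higher in CD49f-low than in CD49f-neg by 0.98 (limma adjusted p = 0.00281) and lower in CD49f-high than in CD49f-low, at -0.73 (limma adjusted p = 0.0105). Prc1 and Smc2 were higher in CD49f-low by 0.86 (limma adjusted p = 0.00547) and 0.67 (limma adjusted p = 0.00561), and Prc1 also in CD49f-high, by 0.69 (limma adjusted p = 0.0101).

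Of 28 other replication genes tested, 3 were higher in CD49f-low than in CD49f-neg and 0 lower (20 and 0 at an unadjusted p under 0.05), with a median of 0.41. They were Gmnn, the inhibitor of Cdt1 (geminin), at 0.82 (limma adjusted p = 0.00354), the DNA ligase Lig1 at 0.64 (limma adjusted p = 0.0262) and the histone mRNA binder Slbp at 0.52 (limma adjusted p = 0.0395). In the comparisons of CD49f-high with CD49f-neg and with CD49f-low, 0 of the 28 were called (limma; 3 higher and 2 lower, and 0 higher and 7 lower, at an unadjusted p under 0.05). These counts use the row of each gene with the highest mean. A second, weaker row of Dut, a nucleotide pyrophosphatase, was called lower in CD49f-high in both comparisons, at -0.66 against CD49f-neg and -0.54 against CD49f-low (limma adjusted p = 0.0120 and 0.0397). With the replicate block, 23 of the 28 were higher in CD49f-low than in CD49f-neg (6 with the scaling too), 5 were higher and 2 lower in CD49f-high than in CD49f-neg, and 10 were lower in CD49f-high than in CD49f-low. The shares of all rows with the block were 24% higher (8.54% with the scaling too), 19.7% higher and 17.8% lower, in that order of comparisons.

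Of 21 other brakes and regulators tested, 5 were higher in CD49f-low than in CD49f-neg (Cdkn2d, Lin54, Wee1, Cks1b and Cks2) and 1 was lower (Gas1). Of all rows, 12.8% were called higher and 2.62% lower. With the replicate block the counts were 8 and 1, and with the block and the scaling 1 and 2. The shares of all rows called higher in these settings were 24% and 8.54%. Between CD49f-high and CD49f-neg 4 were higher and 1 lower, against 13.9% and 8.27% of all rows. Between CD49f-high and CD49f-low 0 were higher and 3 lower, against 5.93% and 10.5%. Gas1, a membrane protein named for its expression in growth-arrested fibroblasts, stood at 176 ± 22.6, 73.3 ± 17.1 and 44.7 ± 6.48 FPKM. It differed from CD49f-neg by -1.27 (limma adjusted p = 0.00209) in CD49f-low and by -1.96 (limma adjusted p = 8.68e-05) in CD49f-high, opposite in sign to the mitosis genes. Of the 9 fibroblast markers, 8 were called lower in CD49f-low and 9 in CD49f-high than in CD49f-neg. The part of this fall of fibroblast genes in the value of Gas1 was not tested. Cdkn2d, the INK4 protein p19, was higher by 0.62 (limma adjusted p = 0.0214) in CD49f-low and by 0.58 (limma adjusted p = 0.0186) in CD49f-high. Skp2, which marks p27 for breakdown, was lower in CD49f-high than in CD49f-low, at -0.53 (limma adjusted p = 0.0105).

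In all, 25 of the 52 genes were called in no comparison of the main fit, and 27 in at least 1. The untested Cdkn2a and Cdkn2b are among the 25. Other settings without the replicate block did call some of the 25, such as Cdkn2b with no filter and Cdk6 after scaling. Of the 27, 6 were higher in both positive gates than in CD49f-neg. Another 5 were higher in CD49f-low than in CD49f-neg and lower in CD49f-high than in CD49f-low. The 5 were Rrm2, Ccne1, Cdk2, Birc5 and Nusap1. The call between CD49f-high and CD49f-low held in 19 of 19 alternatives for Cdk2, 11 of 19 for Rrm2 and 9 of 18 for Birc5. It held in 5 of 18 for Ccne1 and 3 of 18 for Nusap1.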

How the data were processed

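The authors deposited FPKM values in 1 table of 84809 rows and 9 library columns. Per the labels' protocols, sorted cells went straight into Trizol and libraries came from a NEBNext Ultra kit. The tools were TopHat2, StringTie and FastQC with the build GRCm38, per the submitters' processing notes. Versions, filters and strand are not given in the sources used here. Per the file headers, a row carries an identifier, gene symbols and coordinates, and a row may cover several genes.

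The unit, FPKM, was used as deposited, as log2(FPKM + 1), for 20523 rows with at least 1 FPKM in at least 3 libraries. The gates were compared with limma 3.58.1 (R 4.3.3; 1 mean per gate, empirical Bayes with trend, 6 residual degrees of freedom), with Benjamini-Hochberg adjustment across the rows tested and calls at an adjusted p under 0.05. The procedure was tested on simulated data. Where a symbol had several rows, the row with the highest mean was used. FPKM keep no read counts. Depth was estimated from the step between low values of single-exon genes over 300 bases, taking that step as 1 fragment, so it is a guide only.

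The members and lists were chosen with earlier results of these data known. Genes were given by library when called in at least 1 comparison or among the 4 most abundant of their role group, and for other pathway genes the 3 with the smallest p per list were named. For promoters, the rule was the 3 replication and 3 mitosis genes with the smallest p that hold a word. Mcm6 was added after its matches were seen, although Cdc45, whose stretch holds no E2F word, had a smaller p. Cdc20 took the place of Aurka, and 1 of 2 entries of Mcm7 was left out, for their exons. GENCODE M21 exons cover 90 of the 200 bases of Aurka and 200 of that Mcm7 entry.

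Replicate numbers were checked for pairing from deviations from the gate means. The correlation was 0.252 to 0.520 between same-numbered libraries and -0.453 to 0.118 between others, so the numbers pair the samples in the data, though no label says what a number stands for. Unless the block is named, counts and p-values come from the fit without it, which does not use this pairing. The alternatives tried were no filter, a filter of 5 FPKM, a pseudocount of 0.1, median-of-ratios scaling, quantile normalization, centring on the library median, no trend, the replicate block, each library left out, the 6 libraries of a comparison alone, a difference of at least 1 log2 unit, and, chosen after seeing the data, scaling with the block. Tables and figures were made with Python 3.11.15, pandas 2.3.3 and matplotlib 3.10.9. Promoter sequences are from RefSeq (GRCm38.p6).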

Additional observations from a re-analysis of the deposited data

How the results depend on the processing

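Of the 50 genes tested, no called gene changed sign in any alternative run. The rest is about counts of genes past the threshold. For CD49f-low above CD49f-neg (25 genes), the count was 9 with no filter, 5 with median-of-ratios scaling, 8 with quantile normalization, 5 with centring on the library median, 40 with the replicate block and 5 with a difference of at least 1 log2 unit, and leaving out 1 library gave 5 to 30. For CD49f-high above CD49f-neg (6 genes) it was 2 with no filter (Rb1 and Cdkn2b, the second not tested otherwise, so 1 of the 6 was left), 3 with centring, 20 with the replicate block, 15 with scaling and the replicate block, 1 with at least 1 log2 unit, and 1 to 10 without 1 library. Genes lower in CD49f-high than in CD49f-neg numbered 0, and 1 with the replicate block, with or without scaling. Between CD49f-high and CD49f-low, the count of higher genes (1) was 0 with the pseudocount of 0.1, no filter, no trend, the 6 libraries alone and at least 1 log2 unit, and 2 with scaling, quantile normalization, centring, the replicate block, and scaling with the replicate block, and it was 0 to 1 without 1 library. The count of lower genes (6) was 1 with no filter, 3 with the stricter filter, 1 with scaling, 3 with quantile normalization, 2 with centring, 19 with the replicate block, 1 with at least 1 log2 unit and 1 to 6 without 1 library. With no filter, the p-values were adjusted over 84809 rows, which is part of the alternative itself. For the other changes of count, the cause was not tested. Leaving out 1 library leaves 2 in its gate, whose spread is then pooled with that of the other gates. Signs that differed between settings belonged to genes without a call; after median-of-ratios scaling there were 1, 4 and 8 such genes in the 3 comparisons. The deposited unit holds no counts, so the precision of low genes such as Cdkn2a could not be given.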

Other observations

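The 52 genes were not spread evenly over the chromosomes: 9 lay on chromosome 2 (17.3%), which held 7.86% of the tested rows with a symbol, and 6 each on chromosomes 4 and 7 (11.5%, against 6.33% and 7.19%). This is a description of a list chosen by function, with no test.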
